A study of Mus musculus with 2 samples.

Results

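The mRNA of Actb, the gene for cytoplasmic beta-actin, held 13 of the 11670 read clusters that were listed as enriched with epitope-tagged FAM120A in mouse embryonic stem cells, and 0 of the 1134 clusters listed as enriched in the untagged control. The clusters were taken by position, as all those on the minus strand of chromosome 5 within the Actb gene in the mm9 build. The gene was chosen with its clusters known, among them the one with the lowest listed p of the whole tagged list. The contrast between the libraries at these clusters is therefore given as a description, with no test.

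FAM120A binds RNA and is found together with Argonaute 2, the protein that carries microRNAs to their targets. Its contacts were measured by iCLIP, in which ultraviolet light joins proteins to the RNA they touch and the recovered RNA fragments are sequenced. Both groups were mouse embryonic stem cells with a lentiviral Fam120a gene switched on by doxycycline at 2.5 µg/mL. The TT-FHFam120a line made the protein with FLAG and HA tags and the TT-Fam120a line made it without tags. Both lysates went through the same FLAG and HA immunoprecipitations, so reads of the untagged library measure what was recovered without the epitopes. There was 1 library per group, so no difference between the groups has a replicate check. Whether each line was a clone or a pool is not given in the sources used here. The induced protein came from the added gene, and its level relative to the cells' own FAM120A was not analysed here. The lists hold clusters and not RNA levels, so the cell type could not be checked against marker RNAs.

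Beta-actin forms the actin filaments of the cell cortex and of protrusions, and its mRNA is among the most abundant in most cells. Its 3′ UTR, the untranslated stretch after the stop codon, is a textbook case of mRNA localization. A zipcode element in the 3′ UTR close to the stop codon is bound by IGF2BP1 (ZBP1), which carries the mRNA to the cell edge and holds back its translation on the way. iCLIP reads depend on the abundance of an RNA as well as on contact with the protein, and without an RNA level from these cells the effects of abundance and contact on Actb reads cannot be told apart.

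All 13 clusters lay in the low-coordinate part of the gene, which is the 3′ end of this minus-strand mRNA. They spanned positions 143664829 to 143665608, or 780 nt, and together covered 449 nt of it (57.6%). Of the 13, 8 were exactly 26 nt long, which was the median length over the list. The other 5 were named with several pieces each. How cluster widths were set is not known, so coverage and gaps describe the listed clusters and not the extent of contact. The 2992 nt from the span to the 5′ end of the gene window held 0 listed clusters of either library. So did the 329 nt from the span to the low-coordinate edge of the window. That edge is a limit set for the window, and the end of the transcript was not placed. The span makes up 19% of the 4101 nt window. These lengths are genomic and count introns as well as exons, so they are not lengths of mRNA. No mm9 annotation of exons was used here, so the stop codon is not placed and the clusters are not divided into coding sequence and 3′ UTR. No cluster name had the form of a splice junction (0 of 13). The share of such names over the whole list is not given here, so nothing is read from this count.

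Absence from the lists is not absence of reads. The smallest tagged-list cluster anywhere had 5 reads and the largest listed p was 0.0494. At an even split after scaling, a position with 0 untagged reads needed 5 tagged reads to be listed. With 3 untagged reads it needed 13, and with 10 it needed 27. Up to 4 tagged reads against 0, or 26 against 10, could therefore lie unlisted anywhere in the upstream part of the gene window.

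The surroundings of the gene were also empty. The nearest other tagged-list cluster on the same strand lay 35738 nt beyond the 3′-most listed base and had 7 tagged reads against 0. On the 5′ side the nearest lay 87223 nt away, with 5 reads against 0. The nearest untagged-list cluster on the same strand was 1089261 nt away. In RefSeq's gene table for another build, GRCm38.p6, Actb lies between the protein-coding genes Fbxl18 and Fscn1. That table also lists a long noncoding RNA gene, Gm38733, that overlaps Actb at its low-coordinate end, without giving its strand. The listed clusters carry the strand of Actb. How reads that match several places, such as processed actin pseudogenes, were assigned is not given in the sources used here.

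**Figure D1:**
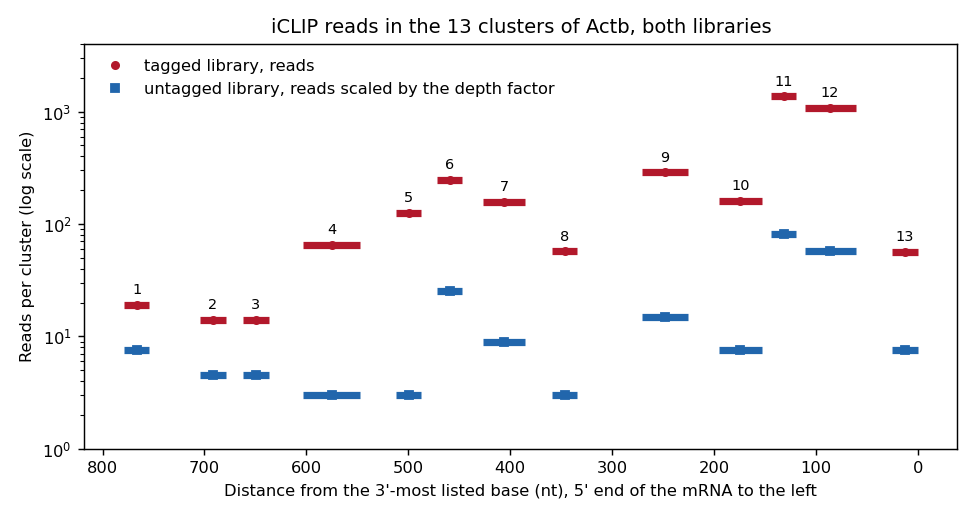
Reads per cluster on a log scale in the tagged library (red circles) and in the untagged library after scaling by the depth factor of 1.501 (blue squares), against distance from the 3′-most listed base in nt. Horizontal bars show the extent of each of the 13 clusters, numbered from the 5′ end of the mRNA. Clusters 11 and 12 stand highest in both libraries, with 1368 and 1075 tagged reads.

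The clusters are numbered here from the 5′ end of the mRNA to its 3′ end. Read counts are those of a whole cluster as listed. Each count of untagged reads was worked out from the listed ratio and p and is given before scaling. The ratio is tagged over untagged reads divided by the depth factor of 1.501, with an exact binomial 95% interval that covers counting error only. Whether each read stands for a separate molecule is unknown, and neighbouring clusters may share reads.

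The 3 clusters nearest the 5′ end were small. Cluster 1, at positions 143665583 to 143665608, had 19 tagged reads and 5 untagged reads, and its ratio was 2.53 (0.914 to 8.68). Cluster 2, at 143665508 to 143665533, had 14 tagged and 3 untagged reads, a ratio of 3.11 (0.868 to 16.9). Cluster 3, at 143665466 to 143665491, had the same counts and so the same ratio. The intervals of these 3 clusters include a ratio of 1. They were listed with p of 0.0261, 0.0318 and 0.0318 in the authors' one-sided binomial test, which takes the scaled untagged reads as if they were counted. Cluster 1 was also the only Actb cluster of the authors' class B. The other 12 were of class C2, which made up 42% of the tagged list, and the letters are not explained in the sources used here.

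Clusters in the middle of the span held more reads and higher ratios. Cluster 4, at 143665376 to 143665432, had 65 tagged and 2 untagged reads, a ratio of 21.7 (5.76 to 183). Cluster 5, at 143665316 to 143665341, had 126 tagged and 2 untagged reads. Its ratio of 42 (11.4 to 350) was the highest of the gene, but rests on 2 untagged reads, and its lower limit lay below the ratio of most other clusters. Cluster 6 began a short distance further on, at 143665276 to 143665301, after a gap of 14 nt. It had 246 tagged reads but 17 untagged reads, a ratio of 9.64 (5.9 to 16.8). The untagged library thus recovered more reads at cluster 6 than at any other Actb cluster outside the leading pair, while its neighbour cluster 5 had 2. The intervals of clusters 5 and 6 overlap.

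Cluster 7, at 143665214 to 143665256, had 158 tagged and 6 untagged reads, a ratio of 17.6 (7.88 to 48.5). Cluster 8, at 143665163 to 143665188, had 57 tagged and 2 untagged reads, a ratio of 19 (5.02 to 161). The longest unlisted gap within the span, 62 nt, followed cluster 8. The other 11 of the 12 gaps were at most 50 nt, and the shortest was 7 nt. Joining clusters at most 50 nt apart would leave 2 stretches, an upstream stretch of 446 nt with 8 clusters and a downstream stretch of 272 nt with 5. Whether clusters this close are separate contacts or pieces of a single stretch of reads is not known.

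The downstream stretch held the most reads. Cluster 9, at 143665054 to 143665100, had 288 tagged and 10 untagged reads, a ratio of 19.2 (10.3 to 40.4). Cluster 10, at 143664982 to 143665024, had 160 tagged and 5 untagged reads, a ratio of 21.3 (8.95 to 66.6). Cluster 11, at 143664948 to 143664973, had 1368 tagged and 54 untagged reads. Only 7 nt further, cluster 12, at 143664890 to 143664940, had 1075 tagged and 38 untagged reads, a ratio of 18.9 (13.6 to 26.8). These were the leading pair, within 84 nt that began 61 nt from the 3′-most listed base. Cluster 12 alone had 3.73 times the reads of cluster 9, the next highest. Cluster 13, the last before the 3′ end, at 143664829 to 143664854, had 56 tagged and 5 untagged reads, a ratio of 7.46 (3.02 to 23.9).

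The tagged reads of the gene spanned a 97.7-fold range, from 14 to 1368 per cluster, with a median of 126. The ratios varied less, from 2.53 to 42 over the same 13 clusters. Clusters of low ratio can go unlisted, which limits that spread from below. The 3 clusters nearest the 5′ end were then left aside, a choice made after their values were seen. The other 10 had 56 to 1368 tagged reads and ratios of 7.46 to 42 with a median of 18.9. The lowest of the lower limits of these 10 was 3.02. The clusters with the most reads did not have the highest ratios. At the leading cluster, number 11, the ratio was 16.9 (12.9 to 22.6), inside the intervals of clusters 4, 5, 7 to 10, 12 and 13. Untagged reads went with tagged reads across the 13 clusters, with a Spearman correlation of 0.72. This is a description over clusters that come from the same 2 libraries, and the untagged library had its highest counts at the same leading pair. Over the 11 clusters without the pair the correlation was 0.54.

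**Figure D2:**
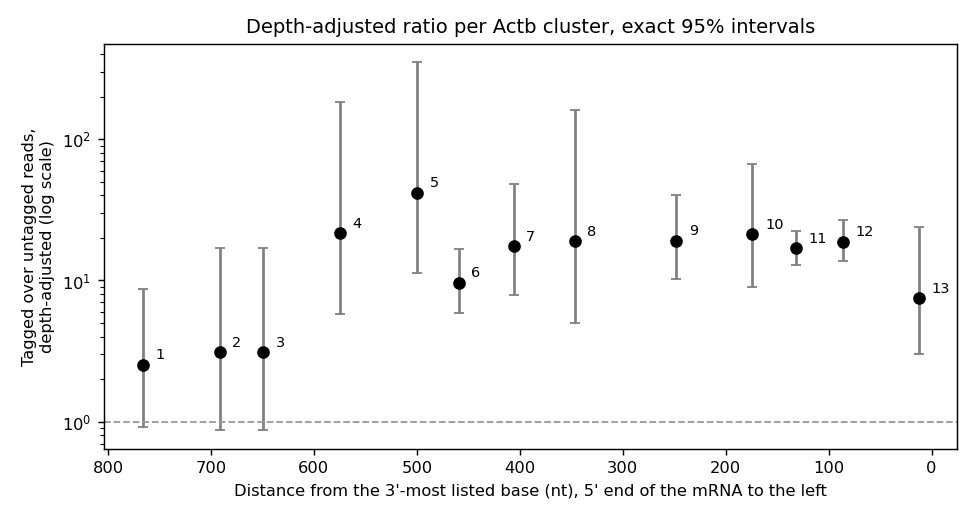
Depth-adjusted ratio of tagged to untagged reads for each Actb cluster on a log scale, with exact 95% intervals, against distance from the 3′-most listed base in nt. The dashed line marks a ratio of 1, which lies inside the intervals of clusters 1, 2 and 3 and below those of the other 10.

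By a listed log2 ratio of at least 3, in which 1 is added to each count, 9 of the 13 Actb clusters stood above the limit, where 38.7% of all tagged-list clusters did. By a lower limit of the depth-adjusted ratio above 1, 10 of 13 did, against 46.2% of the list. Since the gene was chosen on this contrast, nothing is read from these counts. The median listed log2 ratio was 3.99 over the Actb clusters and 2.81 over the list. The clusters also differed in read number: 10 of the 13 Actb clusters had at least 20 reads, and 17.1% of the list did.

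Actb clusters had high read numbers for the list, where the median cluster had 8 reads. Clusters 11 and 12 ranked 2 and 3 of 11670 by reads. The single cluster above them, on the plus strand of chromosome 3 at positions 5860685 to 5860710, had 4343 tagged and 2712 untagged reads, a ratio of 1.07 (1.02 to 1.12), which is far below the intervals of the Actb pair. The tagged list had 207 clusters with 100 reads or more. Their median listed log2 ratio was 0.75 and 34.3% of them reached a log2 ratio of 3. The 7 Actb clusters of that size had a median of 4.16 and ranged from 3.19 to 4.99. These values belong to the contrast on which the gene was chosen, and nothing is read from the difference.

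**Figure D3:**
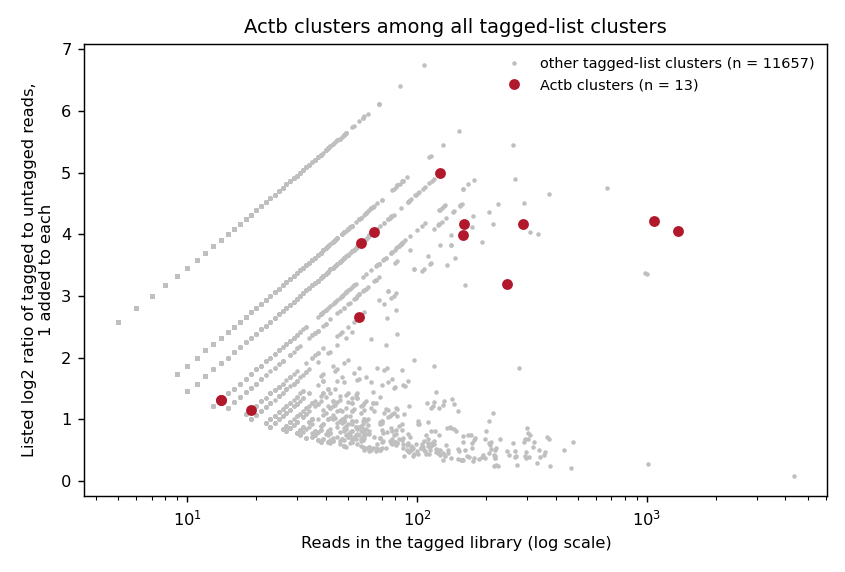
Listed log2 ratio of tagged to untagged reads, with 1 added to each, against tagged reads on a log scale, for the 13 Actb clusters (red, of which 2 coincide) and the other clusters of the tagged list (grey). The lines of grey points at the left are clusters with the same small number of untagged reads. At 100 or more reads the 7 Actb clusters lie between 3.19 and 4.99, while the median of all such clusters is 0.75.

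Every Actb cluster had untagged reads. The control had at least 1 read at 13 of 13 Actb clusters, against 30.1% of the whole list and 83.9% of the list's clusters of at least 20 reads. The fewest were 2, at clusters 4, 5 and 8. Clusters 1, 2 and 3, which had the lowest ratios, had 5, 3 and 3 untagged reads, within the range of the clusters further along, and the fewest tagged reads of the gene.

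Reads within the Actb clusters were spread over several positions. The count at the highest position of a cluster is listed beside its total, and the share it makes up ran from 19.3% at cluster 8 to 71.4% at cluster 2, with a median of 42%. Over the 10 clusters of at least 20 reads the highest share was 47.2% (41 to 53.4, Wilson 95% interval), at cluster 6. All 10 had at most 50%, as did 56.4% of clusters of that size in the list, taken over all classes. The 10 were all of class C2, for which that percentage is not given here, so nothing is read from the count. Their median was 38.5%, against 32.7% over the list's class C2 clusters of that size and 45.3% over all clusters of that size. The leading pair had similar shares, 43.3% (40.7 to 46) in cluster 11 and 45.3% (42.4 to 48.3) in cluster 12, with 593 and 487 reads at the highest position. The lower of these was 4.03 times the next highest count, 121 in cluster 9. The shares over 50%, 57.9% (36.3 to 76.9) in cluster 1 and 71.4% (45.4 to 88.3) in cluster 2, rest on 11 of 19 and 10 of 14 reads.

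**Figure D4:**
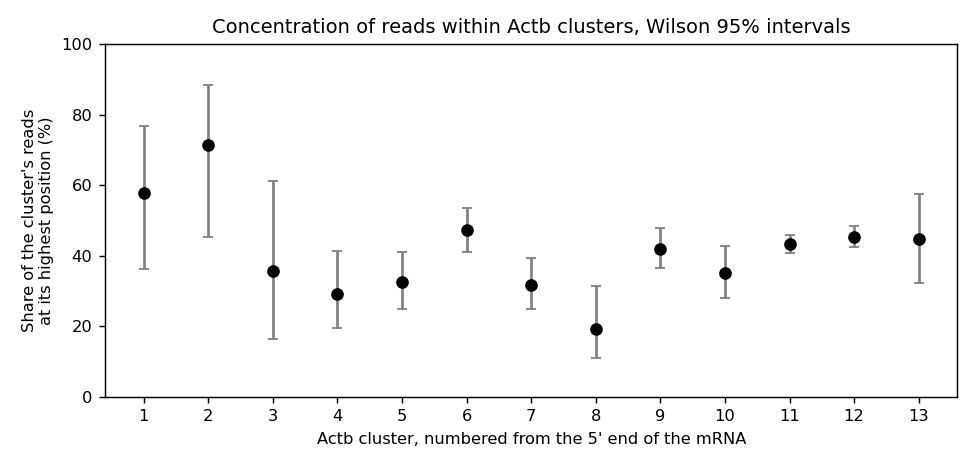
Share of each cluster's reads at its highest position in percent, with Wilson 95% intervals, for the 13 Actb clusters numbered from the 5′ end of the mRNA. Clusters 4 to 13 lie between 19.3% and 47.2%, and the wide intervals of clusters 1 to 3 reflect 14 to 19 reads.

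The listed place of the highest position is an offset, and whether it counts from the low or the high coordinate of a minus-strand cluster could not be settled from the values. In the clusters of 26 nt, which were 8 of the 13, the readings differ by 1 nt. The highest position of cluster 11 was 143664960 counted from the low end or 143664961 from the high end. That of cluster 6 was 143665288 or 143665289, and that of cluster 5 was 143665328 or 143665329. Cluster 4 gave 143665404 either way. In 4 longer clusters the readings lie 16 to 26 nt apart. For cluster 12 they are 143664902 and 143664928, so the peaks of the leading pair were 58 or 33 nt apart. For cluster 9 they are 143665087 and 143665067.

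Compared with loci of similar size, Actb was compact. Clusters at most 1000 nt apart on a strand were joined into 4724 loci, of which 198 held 9 to 17 clusters. The span of 780 nt was shorter than that of 171 of the 198, whose median was 1280.5 nt, and Actb had 1.67 clusters per 100 nt where the median was 0.93. It ranked 15 by this density and 24 by the share of its span covered. The highest cluster of Actb had 10.9 times the reads of its median cluster, where the median over the 198 loci was 2.86. The numerator is the cluster by which the gene was chosen, so this is a description. By the median share at the highest position it ranked 42 from the highest among the 141 loci with clusters of at least 20 reads. Untagged reads at every cluster were found in 3 of the 198 loci. The other 2, on chromosome 17 from position 39979930 and on chrM from 13025, had median log2 ratios of 0.52 and 1.89, against 3.99 in Actb. The loci were not matched for reads: the median cluster had 126 reads in Actb, against a median of 9 over the 198 loci. The log2 ratios belong to the contrast on which the gene was chosen. Nothing is therefore read from the count of 3 loci or from these ratios.

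**Figure D5:**
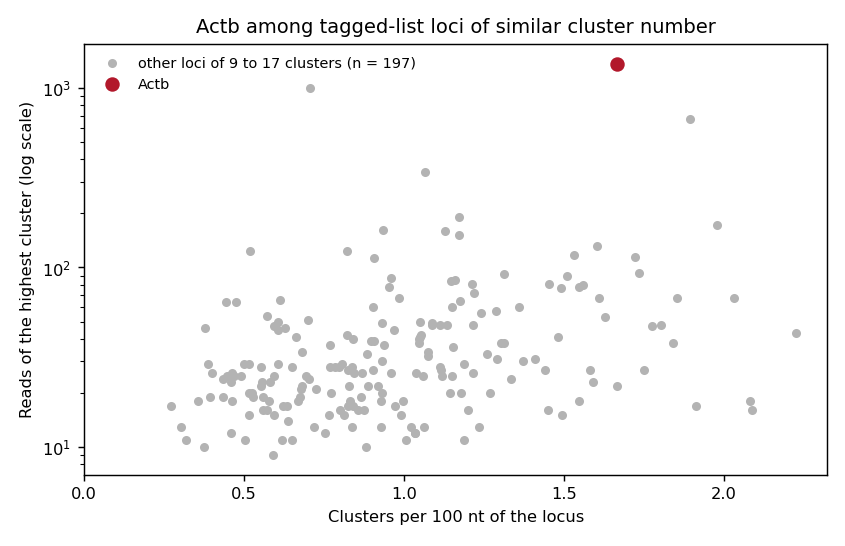
Reads of the highest cluster on a log scale against clusters per 100 nt, for Actb (red) and the other 197 tagged-list loci of 9 to 17 clusters (grey). Actb has the highest cluster, 1368 reads, by which it was chosen, and 1.67 clusters per 100 nt.

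The loci that follow Actb in the order of their lowest listed p are described here by extent, share covered and read numbers. On the plus strand of chromosome 5, positions 130320895 to 130322171 held 9 clusters over 1277 nt, of which 28.3% was covered. Its leading cluster had 60.7% of its reads at 1 position, above the interval of cluster 11 of Actb. Its highest clusters had 995 and 979 reads, and whether they lay next to each other was not examined. On the minus strand of chromosome 11, positions 69730365 to 69730839 held 9 clusters over 475 nt with 54.7% covered, close to Actb in density. Its highest clusters had 671 and 309 reads, and its leading share was 36.1%. The locus on chromosome 18, minus strand, from 35062611 to 35065752, was longer and held 31 clusters. In the order given, the median cluster of these loci had 131, 56 and 20 reads, against 126 in Actb. The control had 0 reads at 1, 3 and 8 clusters of these loci and at 0 of Actb. The highest cluster had 7.6 times the reads of the median cluster in the chromosome 5 locus, 12 times in the chromosome 11 locus and 18.8 times in the chromosome 18 locus, against 10.9 times in Actb. Their median listed log2 ratios were 4, 4.09 and 2.86, so that of Actb, 3.99, was not the highest of these loci. No gene names are given for them because no mm9 gene table was used here.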

How the data were processed

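The data are 1 tagged and 1 untagged iCLIP library, each deposited as a list of read clusters enriched over the other library in mm9, per the submitters' processing notes. Which aligner and cluster caller were used and how PCR duplicates were handled is not given in the sources used here. Library totals are unknown. The deposited lists have no header. The count at the highest position was taken as the authors deposited it, and the joined values were read as cluster reads, a log2 ratio with 1 added to each count, and a one-sided binomial p at an even split. Whole numbers of untagged reads that gave back the ratio (within 0.006) and the p (within 0.0001, or within 0.001 of its size when small) were found for 100% of tagged-list clusters. For the Actb clusters each had a single solution. These numbers were rounded multiples of a factor between 1.5 and 1.502. Factors were searched over a limited range, and the highest group of factors that passed was kept. Whether a lower group also passed is not given here, and the unscaled counts and ratio intervals rest on this choice. The midpoint of the kept group, 1.501, is called the depth factor, since scaling for depth is inferred. At this midpoint 1 tagged-list cluster was not such a multiple, while 0 Actb clusters failed. In the tagged list 5 clusters had several solutions, and the number whose p came nearest the listed value was kept. On a simulated tagged list of 9153 clusters, 99.97% of values were recovered by the same formulas, which checks the computation and not the meaning of the listed values. Intervals on ratios are exact (Clopper-Pearson) and those on shares are Wilson 95% intervals. Every Actb cluster is described, and nearest clusters and the 3 loci of next lowest p were named by rule. The gene, lists and rules were chosen with earlier results of these data known. Analyses used Python 3.11.15, NumPy 2.4.6, SciPy 1.17.1 and pandas 2.3.3.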

Additional observations from a re-analysis of the deposited data

How the results depend on the processing

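Among 19 alternatives, 16 left their result within 1.5 times (counts and lengths) or inside its 95% interval (ratios and medians), and 3 did not. Joining clusters within 50 nt left 2 Actb clusters in place of 13. With no depth factor the ratio of the leading cluster was 25.3 in place of 16.9. The median ratio was then 26.3 in place of 17.6, and both shifts follow by construction. Some of the 16 could not have moved their result. Widening the window by 5000 nt or taking both strands met no other listed cluster, since the nearest lay 35738 nt away. A limit of 1000 nt between clusters exceeded the longest gap, 62 nt. The limits for a median over 13 clusters are wide, 3.11 to 21.3 for the ratio. They treat the clusters as independent, but neighbouring clusters of 1 gene are not replicates, so they serve only as a yardstick. A median of 13.3, from the highest cluster of each stretch merged within 50 nt, counts as unchanged by them. The alternative without the 3 clusters nearest the 5′ end was added after the data were seen and gave a median of 18.9. It keeps the same clusters as the limit of at least 20 reads, so these are not separate checks. No paired analysis was possible because there is a single library on each side. Depth limits the clusters with 2 to 5 untagged reads most, where the upper limit of the ratio reached 350.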
